A study of Mus musculus with 18 samples.

Results

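A set of 45 cell cycle genes was followed through sorted cortical interneurons of mouse embryos and pups. It was a list of symbols covering G1 cyclins and kinases, DNA replication, mitosis and inhibitors of the cycle. The array annotation named 44 of the 45 genes by a probe set assigned to that gene alone, and 43 were bright enough to be tested among 14292 genes in all. The expression of Ccnb1 (cyclin B1) was not analysed here. Tyms, which makes thymidylate for DNA synthesis, had 4 probe sets that all fell below the brightness filter. For each gene the probe set with the highest mean over all arrays was used.

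The series profiled cortical interneurons of the caudal ganglionic eminence (CGE), a ventral germinal zone of the embryonic forebrain. All animals carried the GAD65-GFP reporter, which labels GABAergic cells, and GFP-positive cells were collected by fluorescence-activated sorting. Controls (GAD65-GFP) and Htr3a-KO;GAD65-GFP animals, which lack the serotonin receptor subunit that marks this class, were sampled at E14.5, E18.5 and P2, when the cells migrate tangentially, enter the cortical plate and settle in the cortex. Each of the 6 groups had 3 arrays from 3 different litters, and every one of them was made from a pool of 4 or more brains, so p-values measure the spread between such pools. The labels name no strain and do not say which part of Htr3a was removed. The CGE origin of the sorted cells is as labelled.

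Values are log2 intensities, on which a difference of 1 is a 2-fold change. Array medians lay between 6.35 and 6.46. Htr3a read 6.61 to 10.79 and was lower in every Htr3a-KO array than in every control array of its age. Gad2, which encodes GAD65, read 8.44 to 11.57, and in E14.5 controls array 3 (9.34) lay below arrays 1 and 2 (11.57 and 11.38). Gad1, which encodes the other GABA-making enzyme, read 10.88 to 12.34. Neurod6, a gene of excitatory neurons, read 8.91 to 12.38, and Pdgfra, a receptor of oligodendrocyte precursors, rose from 6.80 to 7.06 in E14.5 controls to 12.36 to 12.52 in P2 controls, so transcripts typical of other cell types were present. In such bulk samples, fewer cells of a type and less RNA per cell cannot be told apart.

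A cell enters the cycle when D-type cyclins bind CDK4 or CDK6 and release E2F factors from the retinoblastoma protein, which switches on cyclin E and the replication genes. INK4 and Kip proteins inhibit these kinases. Cyclin A and cyclin B with CDK1 then drive mitosis, and the anaphase-promoting complex ends it by destroying cyclins. Young interneurons leave the cycle in the ganglionic eminence before they migrate, while progenitors and glial precursors go on dividing.

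Promoter windows are shown for the members with the lowest adjusted p over age, Cdk4 and Mcm7, and for Ube2c and Ccnb2, the mitotic genes that differed most between E14.5 and E18.5 in controls. All 4 genes were chosen with their values known. Each window is the 250 bases before a start site in RefSeq (GRCm38.p6), written along the gene's strand. Capitals mark matches on either strand to the cell cycle homology region (CHR; TTTGAA or TTCGAA), the CCAAT box (CCAAT), or E2F sites (TTTGGCGC, TTTCCCGC, TTTGCCGC or TTTCGCGC), and matches may overlap.
Cdk4, chr10:127063285-127063534, plus strand: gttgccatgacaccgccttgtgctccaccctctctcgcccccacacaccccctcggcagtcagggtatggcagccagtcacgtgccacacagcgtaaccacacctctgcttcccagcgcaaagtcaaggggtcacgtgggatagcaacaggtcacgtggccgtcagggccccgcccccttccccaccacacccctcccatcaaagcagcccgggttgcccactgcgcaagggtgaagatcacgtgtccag
Mcm7, chr5:138171884-138172133, minus strand: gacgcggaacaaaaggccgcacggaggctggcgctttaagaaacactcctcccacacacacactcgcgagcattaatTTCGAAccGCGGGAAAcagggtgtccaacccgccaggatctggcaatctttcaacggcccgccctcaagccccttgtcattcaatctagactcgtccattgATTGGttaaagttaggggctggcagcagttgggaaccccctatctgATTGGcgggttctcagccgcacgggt
Ube2c, chr2:164769679-164769928, plus strand: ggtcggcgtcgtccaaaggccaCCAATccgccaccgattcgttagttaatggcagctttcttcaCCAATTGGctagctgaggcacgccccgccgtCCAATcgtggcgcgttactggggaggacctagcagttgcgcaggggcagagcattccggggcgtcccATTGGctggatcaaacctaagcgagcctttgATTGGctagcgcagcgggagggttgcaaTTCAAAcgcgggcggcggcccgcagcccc
Ccnb2, chr9:70421555-70421804, minus strand: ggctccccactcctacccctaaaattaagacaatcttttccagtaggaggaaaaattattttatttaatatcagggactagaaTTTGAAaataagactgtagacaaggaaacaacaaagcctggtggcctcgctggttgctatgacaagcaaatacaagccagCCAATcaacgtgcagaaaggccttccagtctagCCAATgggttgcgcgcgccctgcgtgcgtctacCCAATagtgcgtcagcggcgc

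The Cdk4 window held none of these letters. The Mcm7 window held 1 CHR, 2 CCAAT boxes and 1 E2F match, and a second Mcm7 window, not printed, held 1 CCAAT box. Ube2c had 6 CCAAT boxes and a CHR lying 24 bases before the start site, and Ccnb2 had 3 CCAAT boxes and 1 CHR. RefSeq windows were found for 35 of the 45 genes (38 windows), Ccnb1 among them. A CCAAT box lay in 17 of 19 windows of mitotic genes (89.5%) and in 83.3% of the replication windows, against 33.8% of all 32851 windows. The CHR letters lay in 47.4% of the mitotic and 25% of the replication windows, against 17.1% of all. E2F letters lay in 33.3% of the replication windows and 5.26% of the mitotic ones, against 1.86% of all. CCAAT boxes were thus common in both the mitotic and the replication windows, and the choice of members did not use these letters. The CHR was more frequent in the mitotic windows (9 of 19, against 3 of 12 replication windows). E2F letters were more frequent in the replication windows (4 of 12, against 1 of 19 mitotic windows), so these rest on few windows. A match is a description of letters and not a binding site.

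Across the full span from E14.5 to P2, the control samples changed in 2 genes of the G1 machinery, 1 inhibitor and 1 replication gene, and 0 of the 21 mitotic genes passed the test. Ccnd1 and Cdkn2c rose about 2-fold, and Cdk4 and Mcm7 fell, by 0.90 and 0.71 on the log2 scale. In limma, with Benjamini-Hochberg adjustment over all genes, 4 of 43 members passed an adjusted p of 0.05 (9.30%), a smaller share than the 39.2% of all genes tested. At an unadjusted p under 0.05 there were 10 of 43 members and 6749 of all 14292 genes. The groups of 3 arrays did not overlap for 8 members, where 48.5% of all genes had no overlap. Of the 43 members 34 read lower at P2, with a median difference of -0.26, against -0.04 over all genes. That median was -0.11 without P2 control array 1, -0.15 without E14.5 control array 3 and -0.44 without P2 control array 2.

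**Figure D1:**
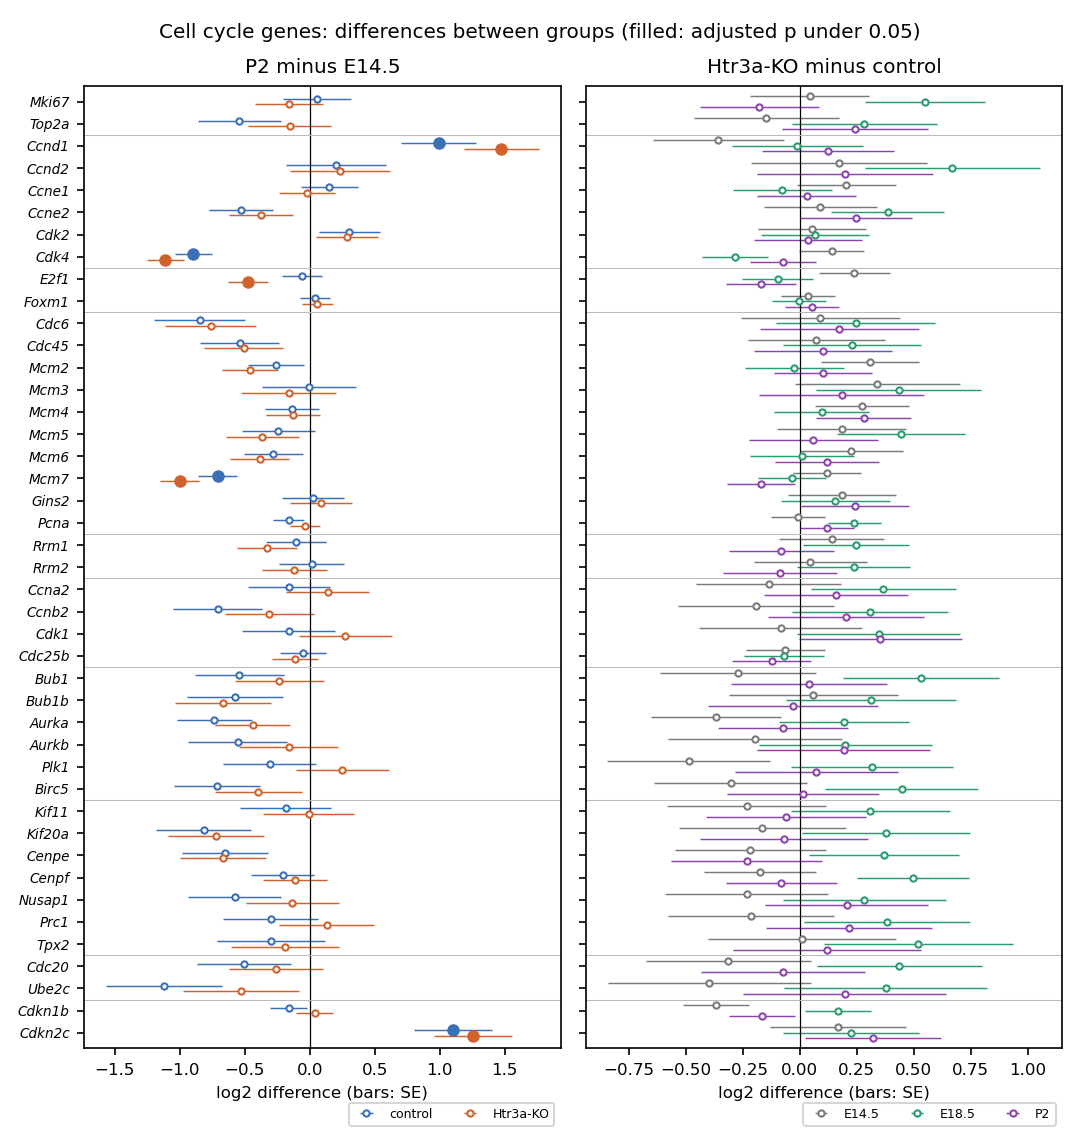
Differences in log2 intensity for the 43 cell cycle genes, with bars of 1 SE and grey lines between roles. The left panel gives P2 minus E14.5 in controls (blue) and Htr3a-KO (orange), and the right panel gives Htr3a-KO minus control at E14.5 (grey), E18.5 (green) and P2 (purple). Filled points passed an adjusted p under 0.05, which 4 genes did in controls and 5 in Htr3a-KO over age, and 0 between genotypes.

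Among the G1 cyclins and kinases, Ccnd1 (cyclin D1) had the largest rise. The 3 controls stood at 8.54, 8.40 and 8.87 (E14.5), 8.83, 9.65 and 9.57 (E18.5), and 9.59, 9.86 and 9.34 (P2). The Htr3a-KO values were 8.34, 7.65 and 8.75 (E14.5), 8.87, 9.31 and 9.84 (E18.5), and 9.90, 9.50 and 9.76 (P2). Every P2 array lay above every E14.5 array of either genotype, and in controls E18.5 overlapped E14.5. From E14.5 to P2 Ccnd1 rose by 0.99 in controls (SE 0.29, limma adjusted p = 0.0126) and by 1.47 in Htr3a-KO (adjusted p = 8.03e-04). The control call was lost without P2 control array 2 (adjusted p = 0.0511, with 0.00189 to 0.0511 over its alternatives). The 3 Ccnd1 probe sets gave control differences of 0.99 to 1.58.

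Between E14.5 and E18.5 Ccnd1 rose by 1.09 in Htr3a-KO (adjusted p = 0.0204), while the control difference of 0.75 did not pass (adjusted p = 0.112). The test of whether the genotype difference changed with age gave an adjusted p of 0.850 for Ccnd1, so the steps were not shown to differ between genotypes. The Htr3a-KO call was lost with the mean of the probe sets (0.0632) and without E14.5 array 2 (0.0843), E18.5 array 2 (0.0616) or E18.5 array 3 (0.0732), with a range over alternatives of 0.0125 to 0.0843.

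Cdk4, the kinase partner of the D cyclins, moved the other way. The controls stood at 11.61, 11.68 and 11.85 (E14.5), 11.50, 11.90 and 11.52 (E18.5), and 11.14, 10.65 and 10.66 (P2). The Htr3a-KO values were 11.72, 11.84 and 12 (E14.5), 11.39, 11.28 and 11.40 (E18.5), and 10.89, 10.60 and 10.74 (P2). The P2 arrays lay below all arrays of the earlier ages in both genotypes, and in Htr3a-KO the E18.5 arrays also lay below those of E14.5. From E14.5 to P2 Cdk4 fell by 0.90 in controls (SE 0.14, adjusted p = 1.78e-04) and by 1.11 in Htr3a-KO (adjusted p = 2.48e-05).

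In controls most of the fall in Cdk4 lay after E18.5. It fell by 0.82 from E18.5 to P2 in controls (adjusted p = 0.00117) and by 0.61 in Htr3a-KO (adjusted p = 0.00589). In the earlier step it fell by 0.50 in Htr3a-KO (adjusted p = 0.0307), and the control difference was -0.07. That earlier call was lost without any of 5 of the 6 arrays compared (adjusted p 0.0507 to 0.109, and down to 0.0254 over its alternatives). For the change of the genotype difference with age, 0 members had an unadjusted p under 0.05 in limma. The timing of the fall was thus not shown to differ between genotypes. The gene's age steps share arrays, since each age mean enters 2 of the 3 comparisons. The probe set used for Cdk4 is of a type that can bind other transcripts, and all 3 Cdk4 probe sets fell, by 0.89 to 1.27 in controls. From E14.5 to E18.5 in controls the probe sets not used differed by -0.19 and -0.25.

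The other G1 genes did not pass in any comparison. Ccnd2 (cyclin D2) read 11.15 to 13.02 over all arrays, with a control difference of 0.20 from E14.5 to P2. Its 7 probe sets gave differences of 0.12 to 0.28. Ccne1 and Ccne2 (the E cyclins, which start S phase with CDK2) differed by 0.15 and -0.53 (adjusted p = 0.103 for Ccne2). Cdk2 differed by 0.30 in controls and 0.29 in Htr3a-KO. D-type cyclins and their kinase thus had members that rose, fell and did not pass.

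The inhibitors were also unlike each other. Cdkn2c, an INK4 inhibitor that binds CDK4 and CDK6, stood in controls at 8.17, 8.52 and 8.92 (E14.5), 8.60, 9.48 and 8.93 (E18.5), and 9.29, 9.99 and 9.63 (P2). In Htr3a-KO it read 8.68, 8.29 and 9.15, then 9.02, 8.89 and 9.78, then 10.33, 9.72 and 9.83. All P2 arrays lay above all E14.5 arrays of their genotype, with E18.5 overlapping its neighbours. The rise to P2 was 1.10 in controls (SE 0.30, adjusted p = 0.00846) and 1.25 in Htr3a-KO (adjusted p = 0.00334). Cdkn1b, a Kip inhibitor that marks cells leaving the cycle, read 9.46 to 10.22 over all arrays and differed by -0.16 in controls and 0.04 in Htr3a-KO. A second Cdkn1b probe set, dimmer than the one used, differed by -0.78 in controls and -0.71 in Htr3a-KO. The probe sets thus disagreed in size in controls and in sign in Htr3a-KO.

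**Figure D2:**
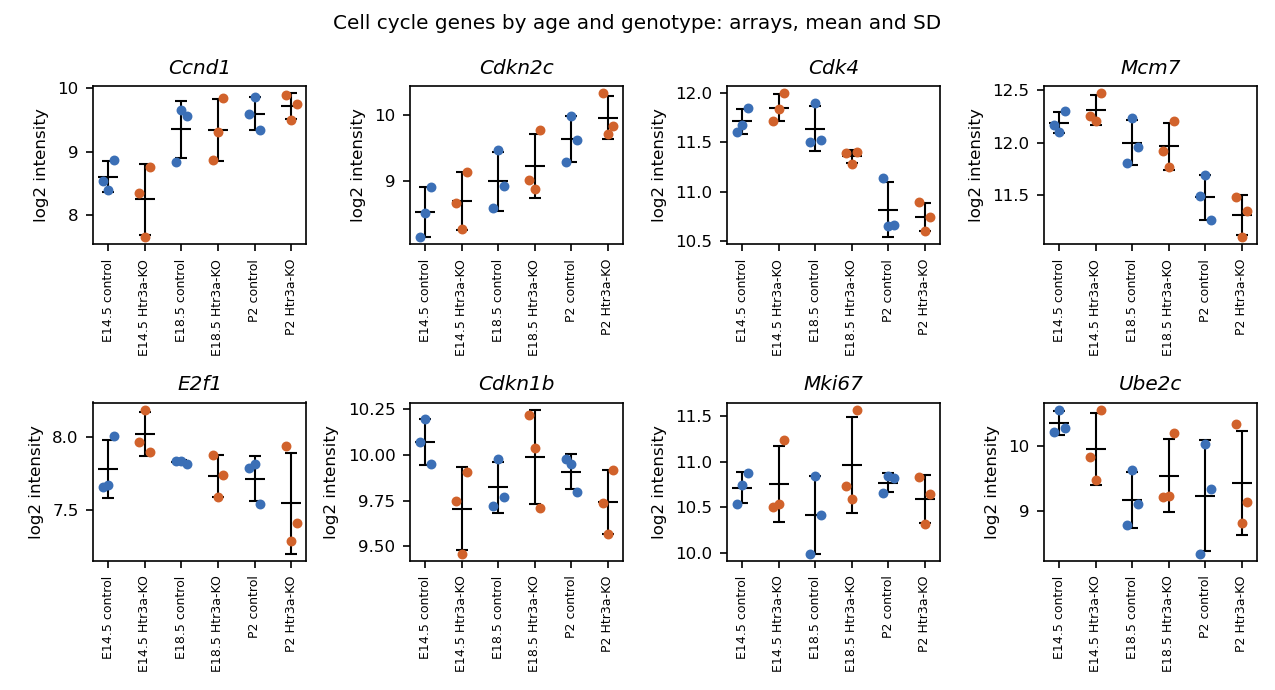
Log2 intensity of 8 cell cycle genes in each array, with blue points for controls, orange points for Htr3a-KO, and black marks for the group mean and SD of 3 arrays. Ccnd1 and Cdkn2c stood higher and Cdk4 and Mcm7 lower at P2 than at E14.5 with no overlap, while the arrays of Mki67 and Ube2c spread widely within most groups.

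Mcm7, a subunit of the replicative helicase loaded at origins, was the replication gene that fell. The controls stood at 12.17, 12.10 and 12.30 (E14.5), 11.81, 12.23 and 11.96 (E18.5), and 11.49, 11.69 and 11.26 (P2). The Htr3a-KO values were 12.25, 12.21 and 12.47, then 11.92, 11.77 and 12.21, then 11.48, 11.10 and 11.35. P2 arrays lay below all earlier arrays of their genotype, while E14.5 and E18.5 overlapped. Mcm7 fell from E14.5 to P2 by 0.71 in controls (SE 0.15, adjusted p = 0.00154) and by 1.0 in Htr3a-KO (adjusted p = 8.83e-05). All 4 probe sets fell in controls, by 0.71 to 1.40.

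After E18.5 Mcm7 fell by 0.52 in controls (adjusted p = 0.0228) and by 0.66 in Htr3a-KO (adjusted p = 0.00491). Leaving out E18.5 control array 2 (adjusted p = 0.106) or P2 control array 3 (0.101) ended the control call, with 0.00570 to 0.106 over its alternatives. With Cdk4 it made 2 of 43 members called in controls at this step, where 19.7% of all genes passed, and these 2 were also the members without overlap, against 32.8% of all genes. In Htr3a-KO Cdk4 and Mcm7 were again the 2 members called, where 28.5% of all genes passed, and 4 members had no overlap, against 47.4%.

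The remaining replication genes read lower at P2 in most cases but did not pass. Of the 10 licensing and fork genes, 9 read lower at P2 than at E14.5 in controls and 9 in Htr3a-KO, with medians of -0.25 and -0.38. Cdc6, which loads the helicase, differed by -0.85 in controls (SE 0.35, adjusted p = 0.0661) and -0.76 in Htr3a-KO (adjusted p = 0.0925). Its control arrays were 7.71, 7.40 and 8.44 at E14.5 and 6.39, 7.73 and 6.89 at P2, and these overlapped. Cdc45, a cofactor of the active helicase, differed by -0.54 and -0.51, and Mcm2 by -0.26 and -0.46. Mcm3, Mcm4, Mcm5 and Mcm6, further helicase subunits, differed in controls by -0.28 to -0.01. Gins2, of the active helicase, differed by 0.03, and Pcna, the sliding clamp of the polymerases, by -0.16. Rrm1 and Rrm2, the subunits of ribonucleotide reductase, differed by -0.11 and 0.01. Probe sets of Cdc45, Mcm3, Gins2 and Rrm2 disagreed in sign.

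Of the transcription factors, E2f1, which activates replication genes, fell in Htr3a-KO. The Htr3a-KO values were 7.97, 8.19 and 7.90 (E14.5), 7.88, 7.59 and 7.74 (E18.5), and 7.94, 7.29 and 7.41 (P2). P2 array 1 overlapped the E14.5 arrays. The fall from E14.5 to P2 was 0.47 (SE 0.15, adjusted p = 0.0221), and the control difference was -0.06. The call was lost without E14.5 Htr3a-KO array 2 (0.0923), P2 array 2 (0.114) or P2 array 3 (0.0838), with a range over alternatives of 0.00142 to 0.114. The genotype difference in E2f1 did not change with age beyond the threshold (adjusted p = 0.738). All 3 E2f1 probe sets read lower at P2 than at E14.5, by unlike amounts. An unused probe set nearly as bright (mean 7.76, against 7.77) differed by -0.25 in controls and -0.50 in Htr3a-KO. The dimmest differed by -0.03 and -0.11. The size of the Htr3a-KO fall and the small control difference thus depended on the probe set. Foxm1, which activates mitotic genes, read 7.25 to 7.66 in all arrays. With E2f1, 5 of 43 members were called from E14.5 to P2 in Htr3a-KO (11.6%), where 41.5% of all genes passed, and 6 had no overlap, against 48.8%. The median of the members over that span was -0.16, and it turned to 0.08 without E14.5 Htr3a-KO array 3 and to 0.01 without P2 Htr3a-KO array 2.

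Mitotic genes were lower at E18.5 than at E14.5 in controls, in values that did not pass. None of the 43 members passed this step, where 11% of all genes did, and 5 had an unadjusted p under 0.05, against 3645 of all 14292 genes. Arrays did not overlap for 4 members, Ccnb2, Birc5, Cenpe and Ube2c, against 30.9% of all genes. Ube2c, the ubiquitin-conjugating enzyme of the anaphase-promoting complex, read 10.22, 10.57 and 10.28 at E14.5 and 8.77, 9.63 and 9.10 at E18.5. The difference was -1.19 (SE 0.44, adjusted p = 0.101). Ccnb2 (cyclin B2) read 9.0, 9.35 and 9.39 at E14.5 and 7.96, 8.54 and 8.57 at E18.5, a difference of -0.89 (adjusted p = 0.110). Birc5 (survivin, of the chromosomal passenger complex) differed by -0.83 (adjusted p = 0.129) and Kif20a, a kinesin of cytokinesis, by -0.81 (adjusted p = 0.177).

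Over that step the mitotic roles read lower in nearly every gene. All 6 kinase and checkpoint genes were lower, with a median of -0.49: Bub1 and Bub1b of the spindle checkpoint, Aurka, Aurkb and Plk1, and Birc5. All 7 spindle and kinetochore genes were lower, from -0.81 to -0.24. These are Kif11 and Kif20a (kinesins), Cenpe and Cenpf (kinetochore proteins), and Nusap1, Prc1 and Tpx2 (microtubule-binding proteins). Cdc20, the activator of the anaphase-promoting complex, differed by -0.69. Ccna2 (cyclin A2) differed by -0.41 and Cdc25b, a phosphatase that activates CDK1, by 0.08. Mki67 and Top2a, the markers of dividing cells, differed by -0.30 and -0.38. In all, 35 of 43 members were lower, with a median of -0.28 against -0.01 over all genes. The median was -0.09 without E18.5 control array 1, -0.14 without E14.5 control array 3 and -0.47 without E18.5 control array 2. Over the same step striatal projection neuron markers were lower in 12 of 12 genes (7 called), excitatory neuron markers in 12 of 13 (4 called) and intermediate progenitor markers in 8 of 9 (4 called), and oligodendrocyte lineage markers were higher in 11 of 12 (8 called). Array means of the striatal list were 8.51 to 10.50 at E14.5 and 7.37 to 7.66 at E18.5, and those of the intermediate progenitor list 9.61 to 10.12 and 8.92 to 9.36. The part of these cell types in the mitotic differences was not tested.

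In Htr3a-KO the same step had 20 of 43 members lower and a median of 0.03, against -0.10 over all genes. Ube2c read 9.83, 9.48 and 10.57 at E14.5 and 9.21, 9.22 and 10.20 at E18.5, a difference of -0.42 (adjusted p = 0.545) with overlapping arrays. Mki67 read 10.50, 10.53 and 11.24, then 10.73, 10.59 and 11.57. In both groups array 3 was far above the others. The median was 0.24 without E14.5 Htr3a-KO array 3 and -0.20 without E18.5 Htr3a-KO array 3, so its sign rested on single arrays. The 2 members called, Ccnd1 and Cdk4, stood against 15.1% of all genes, and the 4 without overlap against 37.5%.

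After E18.5 the controls had as many members higher as lower at P2, 21 of each, with a median of 0. This balance rested on single arrays: the median was -0.16 without E18.5 control array 1, 0.19 without E18.5 control array 2, 0.18 without P2 control array 1 and -0.15 without P2 control array 2. Ube2c differed by 0.07 and Mki67 by 0.36 (adjusted p = 0.381). In Htr3a-KO 31 members were lower, with a median of -0.21, which was -0.04 without E18.5 array 3, -0.06 without P2 array 2, -0.36 without E18.5 array 2 and -0.39 without P2 array 1. There Cenpf, at -0.55, had no overlap between groups (adjusted p = 0.104). The largest P2 minus E14.5 values of mitotic genes in controls were Ube2c at -1.12 (adjusted p = 0.0565), Kif20a at -0.82 (0.0913) and Aurka at -0.73 (0.0533). Without P2 control array 2, the count of members called in that comparison was 10 in place of 4. Leaving out any 1 array of that comparison called 4659 to 5104 of all 14292 genes, against 5601 with all arrays.

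**Figure D3:**
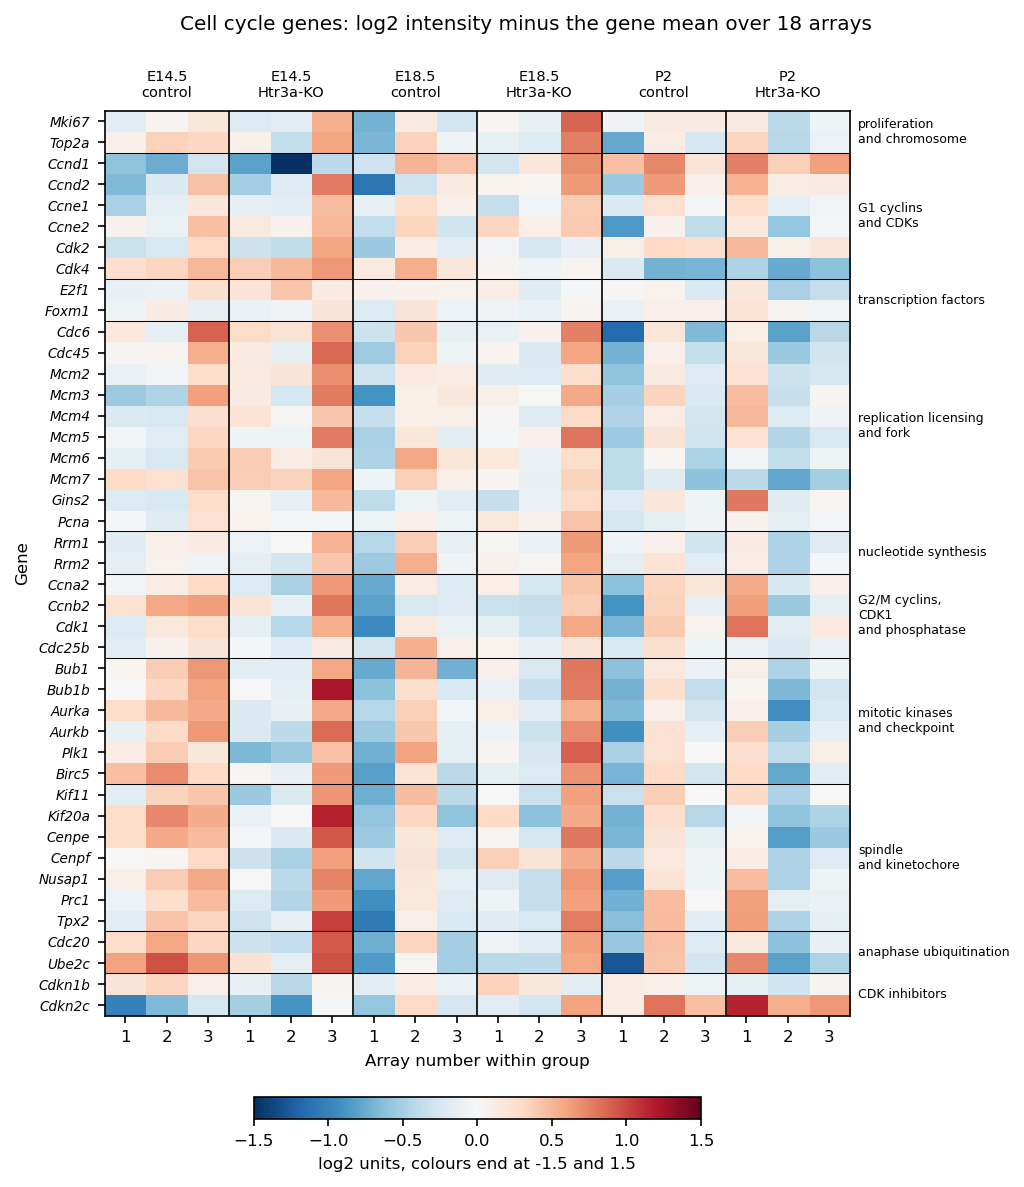
Log2 intensity of each of the 43 cell cycle genes in each of the 18 arrays, minus the gene's mean over the arrays, with red above and blue below that mean. Columns are arrays 1 to 3 of the 6 groups and rows are ordered by role. Whole columns stand out, such as E14.5 Htr3a-KO array 3 (red) and E18.5 control array 1 (blue), and Cdk4, Mcm7, Ccnd1 and Cdkn2c differ by age.

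Arrays of the same group differed widely in these genes. Within groups, the median SD was 0.40 over the 43 members, against 0.18 over all genes, and 39 members lay above the latter. It was 0.48 for the 21 mitotic genes and 0.31 for the 12 replication genes. The span of the 6 group means had a median of 0.55, against 0.54 over all genes. Such a span also grows with the spread within groups, so the like values do not show a like change between groups. Ube2c had the highest SD of the members (0.61), and Foxm1 and Pcna the lowest (0.14).

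In each group, 1 array was the highest for most members. It was E14.5 control array 3 for 32 of 43 members, E14.5 Htr3a-KO array 3 for 40, E18.5 control array 2 for 38, E18.5 Htr3a-KO array 3 for 40, P2 control array 2 for 39 and P2 Htr3a-KO array 1 for 41. The same arrays were highest for 34.9% to 45.9% of all genes. E18.5 control array 1 was lowest for 40 members and P2 Htr3a-KO array 2 for 42, against 29.0% and 31.7% of all genes. The median of the 21 mitotic genes was 8.71, 8.64 and 9.64 in the E14.5 Htr3a-KO arrays. It was 7.96, 9.02 and 8.71 in E18.5 controls, 8.76, 8.70 and 9.59 in E18.5 Htr3a-KO, and 8.30, 9.18 and 8.72 in P2 controls. In P2 Htr3a-KO it was 9.14, 8.41 and 8.81, and in E14.5 controls 9.0, 9.35 and 9.33. The widest gap within a group, in E18.5 controls (7.96 to 9.02), exceeded the span of the group means, and that in E14.5 controls (9.0 to 9.35) did not. Means of 3 arrays vary less than single arrays, so these are unlike measures.

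**Figure D4:**
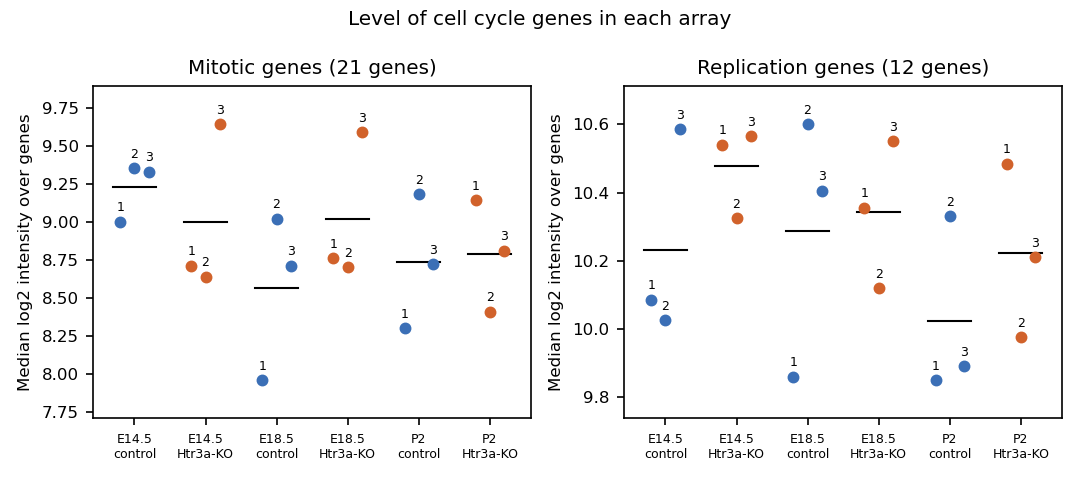
Median log2 intensity of 21 mitotic genes (left) and 12 replication genes (right) in each array, numbered within its group, with controls in blue, Htr3a-KO in orange and a black line at the mean of the 3 arrays. Mitotic medians ran from 7.96 in E18.5 control array 1 to 9.64 in E14.5 Htr3a-KO array 3, and groups overlapped.

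Other gene lists were read in the same arrays. The other S phase genes (45 tested) and the other mitotic genes (64 tested) were highest in the array that led the members in 6 of 6 groups. Intermediate progenitor markers were highest there in 5 of 6 groups, with array means of 9.61, 9.65 and 10.12 in E14.5 controls and 9.0, 8.76 and 9.50 in E18.5 Htr3a-KO. In P2 Htr3a-KO they were lowest there, with 7.39 in array 1 against 7.50 and 7.65. Radial glia, GABAergic with CGE, and erythroid markers were highest there in 4 of 6 groups, and astrocyte and oligodendrocyte lineage markers in 3. The GABAergic with CGE markers were lowest there in the other 2 groups, both of E14.5. The erythroid lead could be small, with medians of 6.17, 6.14 and 6.14 in P2 Htr3a-KO. Endothelial and mural markers were lowest there in 5 of 6 groups and MGE interneuron markers in 4. Excitatory neuron, striatal projection neuron and meningeal markers were lowest there in 3 groups, and highest there in 2, 1 and 1. The part of these cell types in the spread between arrays was not tested.

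No member passed the test between genotypes. In limma 0 of 43 members passed at E14.5, E18.5 or P2, where 0.014%, 0.021% and 0.035% of all genes did. For the mean over ages 0 passed (0.294% of all genes), and for the change of the genotype difference with age 0 passed (0% of all genes). At an unadjusted p under 0.05 there was 1 member at E14.5 and 0 at E18.5, at P2, for the mean and for the change with age. Of all 14292 genes, 838 had such a p for E14.5, 1844 for E18.5 and 1083 for P2, with 1600 for the mean and 1033 for the change with age.

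That member was Cdkn1b. It read 10.07, 10.20 and 9.95 in E14.5 controls and 9.75, 9.46 and 9.91 in E14.5 Htr3a-KO. These did not overlap, as the only such member, and 9.01% of all genes had no overlap at that age. The difference was -0.37 (95% interval -0.67 to -0.06, adjusted p = 0.749). The second Cdkn1b probe set had a group mean of 8.74 in both genotypes at that age, so the difference was seen with 1 of 2 probe sets. With the probe set used, the difference was 0.17 at E18.5 and -0.17 at P2, and its change with age gave the lowest limma p of the members (0.0570, adjusted p = 0.695). The second probe set had group means of 8.51 in controls and 8.86 in Htr3a-KO at E18.5. At P2 they were 7.96 and 8.03, opposite in sign to the probe set used.

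At E18.5, 35 of 43 members were higher in Htr3a-KO, with a median of 0.28 against -0.06 over all genes. Mki67 read 9.99, 10.84 and 10.41 in controls and 10.73, 10.59 and 11.57 in Htr3a-KO, which overlapped. Its difference was 0.55 (95% interval -0.01 to 1.11, adjusted p = 0.394). Ccnd2 differed by 0.67 (adjusted p = 0.487), Cenpf by 0.50 (0.416) and Pcna by 0.24 (0.414). Cdk4 was the only member without overlap, at -0.28 (adjusted p = 0.430), where 20.7% of all genes had none. The median of the members was 0.06 without E18.5 control array 1 and 0.05 without E18.5 Htr3a-KO array 3, and 0.50 without E18.5 control array 2. At this age radial glia markers were higher in 17 of 17 genes, with a median of 0.51 and array means of 8.86 to 9.58 in controls and 9.75 to 10.18 in Htr3a-KO. Endothelial and mural markers were higher in 12 of 13 genes (median 0.78, array means 6.66 to 7.49 and 7.29 to 7.78), astrocyte markers in 10 of 12 (0.61, 7.09 to 7.98 and 8.14 to 8.37) and oligodendrocyte lineage markers in 11 of 12 (0.40, 7.90 to 8.58 and 8.60 to 8.89). In these 4 lists 0 genes passed in limma, with 8 radial glia, 1 endothelial, 6 astrocyte and 3 oligodendrocyte genes at an unadjusted p under 0.05. Their part in the result was not tested.

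At E14.5 the median of the members was 0.01, and -0.26 without Htr3a-KO array 3. The replication genes read higher in Htr3a-KO in 9 of 10 licensing and fork members, with a median of 0.18. The spindle and kinetochore genes read lower in 6 of 7, with a median of -0.21. Plk1, a kinase of mitotic entry, differed by -0.49 (95% interval -1.24 to 0.27, adjusted p = 0.945) and Mcm2 by 0.31 (-0.15 to 0.76, adjusted p = 0.941). At the same age microglia markers were higher in Htr3a-KO in 16 of 16 genes (median 1.35, array means 6.16 to 7.45 and 7.01 to 9.10) and endothelial and mural markers in 13 of 13 (0.69), and striatal projection neuron markers were lower in 12 of 12 (-0.78, array means 8.51 to 10.50 and 8.02 to 8.99). In these lists 0 genes passed in limma, with 7 microglia, 6 endothelial and 6 striatal genes at an unadjusted p under 0.05. The microglia means of the Htr3a-KO arrays were 9.10, 7.72 and 7.01, so array 1 led. At P2 0 members had groups without overlap, against 9.14% of all genes. There 28 members were higher, with a median of 0.07, which became -0.13 without P2 control array 1 and -0.09 without P2 Htr3a-KO array 1. The largest P2 difference was that of Cdk1, the mitotic kinase, at 0.35 (95% interval -0.41 to 1.11, adjusted p = 0.844). For these 2 mitotic kinases, Plk1 at E14.5 and Cdk1 at P2, a difference of 2-fold in 1 direction lay within the interval. Microglia markers were lower in Htr3a-KO at P2 in 16 of 16 genes (median -1.61, array means 6.97 to 9.81 in controls and 6.66 to 7.30 in Htr3a-KO). The control means were 9.81, 8.14 and 6.97, so array 1 led. At P2 astrocyte markers were higher in 12 of 12 genes (median 0.345). Intermediate progenitor markers were lower in 6 of 9 (-0.37) and excitatory neuron markers in 10 of 13 (-0.40). In these P2 lists 0 genes passed in limma, with 6 microglia, 2 astrocyte, 5 intermediate progenitor and 4 excitatory genes at an unadjusted p under 0.05. The part of these cell types in the genotype differences was not tested.

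Genes of the cycle beyond the members were taken from 3 further lists. Of 45 other S phase genes, 14 fell and 0 rose from E14.5 to P2 in controls, and 22 fell and 0 rose in Htr3a-KO. Of all genes, 21.2% fell and 18% rose in controls, and 26% fell and 15.6% rose in Htr3a-KO. Rfc4 and Rfc3, subunits of the clamp loader, fell by 1.20 and 0.89 in controls. Slbp, which binds histone mRNA, fell by 0.84 and by 0.91 in Htr3a-KO. Nasp, a histone chaperone, fell by 0.85 and Mcm8, a helicase-related protein, by 1.26 in Htr3a-KO. The list medians were -0.41 and -0.51, against -0.04 and -0.07 over all genes.

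Of 64 other mitotic genes, 10 fell and 0 rose in controls over the same span, and 5 fell and 1 rose in Htr3a-KO. The share called was 15.6% in controls and 9.4% in Htr3a-KO, smaller than the 39.2% and 41.5% of all genes. Of all genes, 21.2% fell in controls and 26% in Htr3a-KO, so mitotic genes were called lower less often than genes at large. Called or not, 58 of the 64 read lower at P2 in controls and 43 in Htr3a-KO. The list medians were -0.45 and -0.21, against -0.04 and -0.07 over all genes. All P2 arrays lay below all E14.5 arrays for 27 of the 64 in controls, against 3850 of all 14292 genes. In Htr3a-KO this held for 6 of the 64, against 4286 of all genes. Cks1b, a partner of the kinases, fell by 0.62 in controls, and the condensin genes Ncapd2 and Smc2 by 0.63 and 0.53. In Htr3a-KO Ncapd2 fell by 0.76 and Plk4, the kinase of centriole duplication, by 0.65, and Cit (citron kinase, of cytokinesis) rose by 0.45. From E14.5 to E18.5, 4 of the mitotic list (6.25%) fell in controls, near the 4.93% of all genes that fell. The 4 included Cdca2 (by 1.32), Cep55 (by 1.04) and Smc4 (by 0.76). Called or not, 62 of the 64 genes read lower at E18.5 in controls and 2 higher. Their median was -0.46, against -0.01 over all genes. For 28 of the 64, all E18.5 control arrays lay below all E14.5 control arrays, against 2356 of all 14292 genes. The share called thus did not show the shift of the list. In Htr3a-KO 0 genes of the list passed that step in limma, where 15.1% of all genes did. There 1 gene of the list had an unadjusted p under 0.05, against 4563 of all 14292 genes.

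Of 38 other regulators and inhibitors, 7 rose and 9 fell in controls from E14.5 to P2, and 5 rose and 12 fell in Htr3a-KO. In controls 42.1% of the list was called and in Htr3a-KO 44.7%, near the 39.2% and 41.5% of all genes. Of all genes, 18% rose and 21.2% fell in controls, and 15.6% rose and 26% fell in Htr3a-KO. The genes named below are thus examples from a list that was called about as often as other genes. Ccnd3 (cyclin D3) rose by 1.20 in controls and 0.87 in Htr3a-KO, and Ccng1 (cyclin G1) by 0.64 and 0.44. Cdkn1a, a Kip family inhibitor induced by p53, rose by 1.19 in controls, and Cdkn2b, an INK4 inhibitor, by 0.90 in Htr3a-KO. Cdkn1c, the Kip inhibitor of cells leaving the cycle, fell by 1.34 in controls. Tfdp2, the dimer partner of E2F factors, fell by 1.46 and 1.56, Lin9, of the complex that binds CHR letters, by 0.72 and 0.78, and Mycn, a driver of progenitor growth, by 1.5 in Htr3a-KO.

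Cell type markers moved over the same ages. From E14.5 to P2 in controls, 10 of 12 astrocyte markers and 11 of 12 oligodendrocyte lineage markers rose, and 10 of 13 excitatory neuron and 6 of 9 intermediate progenitor markers fell. Array means of the astrocyte list were 6.88 to 7.53 at E14.5 and 9.89 to 10.63 at P2, and those of the oligodendrocyte lineage list 6.57 to 6.82 and 9.63 to 10.11. Intermediate progenitor means were 9.61 to 10.12 and 7.79 to 8.22. Olig2, a factor of glial precursors, read 4.81 to 5.90 in E14.5 controls and 9.49 to 10.01 in P2 controls, and Eomes, of intermediate progenitors, 11.15 to 11.86 and 6.54 to 7.23. The part of these cell types in the changes of Ccnd1, Cdkn2c, Cdk4 and Mcm7 was not tested.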

How the data were processed

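RNA of sorted cells was hybridised to 18 Affymetrix whole-genome mouse arrays, 3 in each of 6 groups of age and genotype taken from the labels. Per the series' design text, the authors used Partek Genomic Suite 6.6 with RMA normalisation, and the deposited values are log2 intensities, which carry no counts. The number of arrays limits the precision. They were used as deposited.

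Of 45101 probe sets, 34945 were named by 1 gene, 932 by several and 9160 by none. Probe sets in the lowest 30% of means (under 5.255) were left out, and the brightest stood for its gene, which gave 14292 genes. Tests used limma 3.58.1 (R 4.3.3), fitting 1 mean per group and a shared spread (12 residual degrees of freedom) and Benjamini-Hochberg adjustment over all genes. The comparisons were the age steps in each genotype, Htr3a-KO minus control at each age and over ages, and the change of that difference with age. The fit was tested on simulated data. Alternatives were no filter, the lowest 50% left out, averaged probe sets, a further quantile normalization, centring each array on its median, a trended robust variance, a replicate block, and leaving out each array. All members could be named, and of each other list up to 3 called genes per direction with the smallest p in a comparison. The members and the 15 lists were chosen with earlier results of these data known.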

Additional observations from a re-analysis of the deposited data

How the results depend on the processing

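Counts of members called, the calls themselves and the list medians were recomputed under each alternative. Of the settings that kept all arrays, a further quantile normalization raised the count from E14.5 to P2 in controls from 4 to 8, leaving out the lowest 50% or centring each array on its median raised it to 6 (with Aurka and Ube2c), and the mean of the probe sets lowered the count from E14.5 to E18.5 in Htr3a-KO from 2 to 1. Leaving out 1 array at a time gave 0 to 1 members called from E14.5 to E18.5 in controls, 1 to 3 from E18.5 to P2 and 4 to 10 from E14.5 to P2. In Htr3a-KO it gave 0 to 2, 2 to 3 and 4 to 6. Of all 14292 genes, the same runs called 916 to 1417, 1823 to 2901 and 4659 to 5104 in controls. In Htr3a-KO they called 928 to 1982, 2517 to 3718 and 5043 to 5456. For the settings that kept all arrays, counts over all genes are not given here. The named changes were 1 call from E14.5 to E18.5 in controls without E18.5 control array 2 (Bub1), and 0 calls from E14.5 to E18.5 in Htr3a-KO without E14.5 array 2, E18.5 array 2 or E18.5 array 3. All genotype comparisons, and the change with age, kept 0 members in every setting run. Of all genes, leaving out 1 array called 0 to 135 at E14.5, 2 to 20 at E18.5 and 0 to 21 at P2. It called 17 to 128 for the mean over ages and 0 to 13 for the change with age. The 15 calls on members were kept in 180 repeats and lost in 15, and 0 reversed sign. Another 13 differences that did not pass did so in at least 1 setting. Arrays of different groups share only a replicate number: over 15 pairs of groups the correlation of same-numbered deviations ran from -0.54 to 0.38. With the replicate block the counts were 0, 2 and 4 in controls and 2, 2 and 5 in Htr3a-KO, as without it. The spread between litters limits what 3 arrays per group can show for the mitotic genes, and dim probe sets such as those of Tyms give no value.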
